A study of Mus musculus with 12 samples.

Results

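Cells that had lost a UHRF1-GFP reporter after 7 days in 2i medium (2i GFP-) were set against the Serum/LIF day 0 cells from which the pooled knockdown screen had started, hairpin by hairpin. A hairpin was included when it had at least 0.5 CPM (counts scaled to library size) in 3 or more of the 6 libraries of these groups. This left 2923 of the 3243 short hairpin RNAs (shRNAs) in the count table, against 725 of its 732 gene symbols. Of the 320 hairpins left out, 44 had no count in any of the 6 libraries. The 144 hairpins that passed in exactly 3 libraries had 14 to 1757 counts over the 6 libraries (median 356), and the 103 with 0.5 CPM in exactly 2 libraries, which were left out, had 19 to 790 (median 226). The filter itself fixed part of the outcome, because 11 hairpins passed through the 2i GFP- libraries only and 32 through the day 0 libraries only.

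All cells were of the strain labelled E14 UHRF1-GFP, 1 feeder-free mouse embryonic stem cell line that expresses a UHRF1-GFP transgene, so a lost signal reports on the transgene product. In Serum/LIF they received the TRC mouse kinase library of lentiviral hairpins and were selected with puromycin. 2i GFP- cells (3 libraries, A to C) are the GFP negative fraction sorted after 7 days in serum-free N2B27 with LIF, the MEK inhibitor PD0325901 at 1 µM and the GSK3 inhibitor CHIR99021 at 3 µM. The matching 2i GFP+ fraction and unsorted cells kept in Serum/LIF for 7 days (Serum/LIF day 7, 3 libraries each) are used below only to place single hairpins, and Serum/LIF day 0 (3 libraries, unsorted) was collected when the culture was split into these arms. A change from day 0 to 2i GFP- can therefore come with the 7 days of growth, the 2i medium or the sort, and these cannot be told apart in the comparison itself. The study calls the replicates of the screen biological and grew the cells for the 7 days in replicate, but the sources name no separate infections for A, B and C, and the tests cover the spread among these libraries. The libraries are PCR products of genomic DNA, so no cell markers and no knockdown of any target could be checked.

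In a pooled screen each cell carries, as a rule, a single integrated hairpin, and the count of that hairpin follows the number of its cells. Hairpins against genes that cells need for growth are lost as the population divides, and hairpins against genes that hold back growth or survival gain share. Mouse embryonic stem cells in Serum/LIF receive FGF and MEK-ERK signals that push towards differentiation, and 2i blocks MEK and GSK3 and holds the cells in the naïve state, in which UHRF1, the factor that brings the maintenance methyltransferase DNMT1 to replicating DNA, is lost.

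Hairpin sequences are shown for 2 genes, because they show what a count stands for and which hairpins of a gene are independent reagents. The study lists 5 clones each for the pools it used against 4 genes (20 clones, all with different seeds), and which clone is which numbered hairpin of the count table is not given in the sources used here. Each is the strand complementary to its target, 21 nt long and written 5′ to 3′, with bases 2 to 8, the seed, in capitals. The clones against Csnk2b, the regulatory subunit of casein kinase 2 (chromosome 17), shared no run of over 5 bases within the gene.
Csnk2b TRCN0000025054: tTTCCAACatttgtgcgatgc
Csnk2b TRCN0000025055: aAGAATTCattaccacggagc
Csnk2b TRCN0000025056: tTCCAGGTctaagatcatgtc
Csnk2b TRCN0000025057: aTGGATCTtgaaaccatagag
Csnk2b TRCN0000025058: aTGCACCAtgaagagcatgtg
The clones against Prpsap2, an associated protein of phosphoribosyl pyrophosphate synthetase (chromosome 11), held 2 pairs that overlap by 20 bases, TRCN0000075709 with TRCN0000075712 and TRCN0000075710 with TRCN0000075711.
Prpsap2 TRCN0000075708: tAACTTCTttcatttcagagg
Prpsap2 TRCN0000075709: aATGTCATccacaatgatggc
Prpsap2 TRCN0000075710: tTGCACATcatagaagccagc
Prpsap2 TRCN0000075711: tTTGCACAtcatagaagccag
Prpsap2 TRCN0000075712: tAATGTCAtccacaatgatgg
Within a pair the target site is nearly the same but the seed is shifted by 1 base, so the hairpins of a gene are not always separate tests of it.

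Total counts ran between 2642014 and 3302331 in 2i GFP- libraries and between 3623256 and 4395190 in day 0 libraries. A mean of 2808 ± 41.9 hairpins had a count in 2i GFP- libraries and 2884 ± 37.9 in day 0 libraries (SD, n = 3 each). The difference of -76.7 hairpins was not past the threshold (exact permutation test, two-sided, p = 0.2, where 3 against 3 libraries allow no p below 0.1). Replicates resembled each other more in 2i GFP- (Spearman's rho across hairpins 0.923 to 0.949) than at day 0 (0.871 to 0.886). At Serum/LIF day 7 the rho was 0.969 to 0.974. In the text, CPM are scaled by TMM factors, log2 fold changes are 2i GFP- over day 0 unless another group is named, and counting intervals cover counting error only, because amplified reads carried no molecular identifiers and do not count independent molecules.

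Over the 7 days, 157 hairpins against 140 genes were depleted and 160 hairpins against 150 genes were enriched (edgeR's quasi-likelihood test, where a call needs an adjusted p under 0.05 together with a log2 change past 1). These are 5.37% and 5.47% of the hairpins tested. The depleted hairpins held 2.06% ± 0.0612 of the counts of 2i GFP- libraries against 7.04% ± 0.0670 at day 0, and the enriched ones 16.0% ± 0.374 against 6.96% ± 0.161 (SD, n = 3 each). The median log2 fold change was -1.98 over the depleted hairpins and 1.38 over the enriched ones. Of the hairpins that had passed the filter through 1 group only, the 32 seen at day 0 were all called lower and 9 of the 11 seen in 2i GFP- were called higher, so 125 depleted and 151 enriched hairpins remain where both groups had measured values, with medians of -1.69 and 1.34. Enrichment was called mainly among common hairpins, 13.3% of the 731 hairpins with the highest mean CPM against 1.37% of the 731 with the lowest, and 6.44% and 0.821% in the upper and lower quartile between them. Depletion followed no such order, with 3.97%, 9.59%, 3.01% and 4.92% from the highest to the lowest quartile. The spread of the fold changes was 0.724 in the highest quartile and 2.80 in the lowest (SD, log2).

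The size of these groups depended on the fit and on single libraries. With total count scaling in place of TMM, 195 hairpins were called lower and 115 higher. With the spread estimated from all 4 groups together, 28 were lower and 67 higher. Without 2i GFP- library A 96 hairpins were lower (85 with the tested hairpins held fixed), without day 0 library A 85, without B 87 and without C 74, and without 2i GFP- library C 109 were higher (106 with them held fixed). Of the 93 called hairpins that the rule for naming picked, 26 of 46 depleted and 32 of 47 enriched ones kept their call whichever library was left out, and most of the others are given below with the libraries that decided them. The median log2 fold change of all hairpins was -0.08 and moved to -0.22 under total count scaling.

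The 10 depleted hairpins with the smallest p-values were each against a different gene, and all kept their call whichever library was left out. Hairpin 1932 against Csnk2b had 1011, 948 and 924 CPM in 2i GFP- libraries A, B and C, against 2673, 2112 and 2425 CPM at day 0. Every 2i GFP- library was below every day 0 library, as for all 317 called hairpins in 1 direction or the other and for 19.7% (below) and 18.4% (above) of the hairpins tested, with a log2 fold change of -1.33 (SE 0.124, edgeR adjusted p = 0.000644). The largest change among the 10 was in hairpin 1231 against Csnk1a1, the casein kinase that primes β-catenin for phosphorylation by GSK3. It had 48.6, 142 and 88.7 CPM in 2i GFP- libraries, against 1467, 1056 and 1143 CPM at day 0 (-3.71, SE 0.376, edgeR adjusted p = 0.000746). The groups were far apart, and even the highest 2i GFP- library held a small part of the lowest day 0 library. Hairpin 3443 against Per3, a circadian clock protein, had 84.3, 68.3 and 59.0 CPM in 2i GFP- libraries, against 643, 431 and 599 CPM at day 0 (-2.99, edgeR adjusted p = 0.000644). Another of the 5 Per3 hairpins was called higher. Hairpin 154 against Chek1, the checkpoint kinase that restrains the cell cycle when replication stalls, had 138, 223 and 130 CPM in 2i GFP- libraries, against 1017, 1049 and 669 CPM at day 0 (-2.48, edgeR adjusted p = 0.00105). It stood alone for its gene, since the other 4 Chek1 hairpins had log2 fold changes between -0.32 and 0.57 and none was called.

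The other depleted hairpins of this group separated in the same way. Hairpin 3000 against Ccnh, the cyclin of the CDK-activating kinase and of TFIIH, had 90.4, 92.1 and 80.3 CPM in 2i GFP- libraries, against 381, 512 and 511 CPM at day 0 (-2.42). Hairpin 1767 against Shpk (CARKL in the table), which phosphorylates sedoheptulose next to the pentose phosphate pathway, had 168, 177 and 218 CPM in 2i GFP- libraries, against 844, 910 and 716 CPM at day 0 (-2.14). Hairpin 992 against Met, the receptor of hepatocyte growth factor, had 137, 141 and 124 CPM in 2i GFP- libraries, against 545, 497 and 590 CPM at day 0 (-2.02). In none of these did the groups overlap. Ilk, a pseudokinase that links integrins to actin, had 742, 741 and 597 CPM of hairpin 251 in 2i GFP- libraries, against 1785, 1749 and 2205 CPM at day 0 (-1.47). Hairpin 2379 against Nek4 had 612, 764 and 670 CPM in 2i GFP- libraries, against 1773, 1492 and 1929 CPM at day 0 (-1.35). The edgeR adjusted p-values of these 5 were between 0.000661 and 0.00105, and the remaining hairpin of the 10, against Gsk3b, is given with the targets of 2i. Of Ilk's other 3 hairpins, 250 was also called lower (-1.16), and 248 (0.54) and 249 (0.28) were not called. Nek4, Shpk, Met and Ccnh had no other called hairpin. The medians over a gene's hairpins were 0.33 for Nek4 (9 tested), 0.18 for Shpk (3), -0.09 for Met (5) and -0.38 for Ccnh (4).

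The 10 enriched hairpins with the smallest p-values were also each against a different gene. Hairpin 3533 against Neo1, the netrin and RGM receptor neogenin, had 1989, 2272 and 2072 CPM in 2i GFP- libraries, against 728, 617 and 693 CPM at day 0 (log2 fold change 1.63, SE 0.127, edgeR adjusted p = 0.000548). Hairpin 2915 against Kcnh7, a voltage-gated potassium channel, had 796, 988 and 788 CPM in 2i GFP- libraries, against 153, 127 and 174 CPM at day 0 (2.50). Hairpin 3015 against Pdgfrb, a receptor of platelet-derived growth factor, had 1626, 1431 and 1924 CPM in 2i GFP- libraries, against 226, 366 and 268 CPM at day 0 (2.53). In all of these each 2i GFP- library was above each day 0 library. Hairpin 223 against Tgfbr1, the kinase receptor of TGF-β, had 725, 685 and 742 CPM in 2i GFP- libraries, against 141, 177 and 177 CPM at day 0 (2.12). Hairpin 1553 against Mylk3 (D830007F02RIK in the table), the myosin light chain kinase of heart muscle, had 795, 622 and 833 CPM in 2i GFP- libraries, against 139, 153 and 139 CPM at day 0 (2.38). Among these 5 hairpins only that of Neo1 had a log2 fold change under 2. Each was the only hairpin of its gene called higher, and 1 of Pdgfrb was called lower. The medians over a gene's hairpins were -0.42 for Neo1 (9 tested), -0.32 for Pdgfrb (4) and -0.16 for Tgfbr1 (5). They were 0.36 for Kcnh7 (5) and 0.44 for Mylk3 (4). The phosphoinositide kinases Pi4k2b (hairpin 1833, 1.55) and Pip5k1a (hairpin 1642, 1.05) were also enriched. Hairpin 1642 was the most abundant of these, with 7953, 8177 and 9001 CPM in 2i GFP- libraries, against 4187, 4130 and 3811 CPM at day 0. Its fold change lay at the limit of a call and was 0.98 at the lowest when a library was left out, which lost the call without 2i GFP- C or day 0 C. Cinp, a CDK2-interacting protein (hairpin 3168, 1.51), Ntrk3, a neurotrophin receptor (hairpin 975, 1.22), and Mapk8ip3, a JNK scaffold (hairpin 3312, 1.07), complete the 10. Mapk8ip3 and Pip5k1a lost the call under upper quartile and total count scaling.

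In 15 hairpins, all of them depleted, no 2i GFP- library had a count, and their folds are lower bounds set by a floor of 3 counts in each library. They passed the filter through day 0 only, which fixed their direction. The bounds ran between at least 15.5-fold and at least 84.7-fold lower in 2i GFP-. The 5 with the most day 0 counts were hairpin 2244 against Hkdc1, a hexokinase-like protein (at least 84.7-fold lower), 1118 against Tec, a tyrosine kinase of blood cells (at least 76.6-fold), 1084 against Ptk2b, a relative of focal adhesion kinase (at least 61.7-fold), 3379 against Strap, a partner of TGF-β receptors (at least 57.3-fold), and 2428 against Ikbke, a kinase of interferon induction (at least 54.7-fold). Day 0 counts could be uneven, as for Hkdc1 hairpin 2244 with 23, 847 and 295, and its call was lost without 2i GFP- A, 2i GFP- C, day 0 B or day 0 C. That of Ptk2b hairpin 1084 was lost without 2i GFP- A, day 0 B or day 0 C (edgeR adjusted p up to 0.0686), and another Ptk2b hairpin was called higher. Of the 15 hairpins, 14 had no count in 2i GFP+ libraries either, and 3 none at Serum/LIF day 7. Conversely, 9 enriched hairpins had no count in any day 0 library, with bounds between at least 33.3-fold and at least 144-fold higher in 2i GFP-. They passed the filter through 2i GFP- only, which fixed their direction. More hairpins had a count in Serum/LIF day 7 libraries (2989 to 3053) than in day 0 libraries (2850 to 2925). A missing day 0 count need not mean absence from the starting cells, so these bounds are not measured gains. The cause of the missing counts was not tested. All 9 had counts at Serum/LIF day 7 as well. They include hairpin 2504 against Pakap (AKAP2 in the table), an anchor of protein kinase A, with 192, 379 and 295 counts in 2i GFP- libraries, and 392 against Lats2, a Hippo pathway kinase (at least 47.2-fold higher), whose call was lost without 2i GFP- A, 2i GFP- C, day 0 A or day 0 C.

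At gene level, the median over a gene's hairpins was taken in each library and tested for the 632 genes with at least 3 hairpins. By limma, 5 genes were lower in 2i GFP- (0.791% of those tested) and none was higher (0%), each of the 5 at an adjusted p of 0.0411. The numbers at an unadjusted p under 0.05 were 79 lower (12.5%) and 57 higher (9.02%), and limma on the mean over hairpins called 37 lower and 7 higher, and edgeR on summed counts 76 lower and 70 higher. The 5 genes were Rack1 (GNB2L1 in the table), a scaffold protein of the small ribosomal subunit, with a difference of -4.56 (SE 0.67) on the log2 scale, Stk38l, an NDR kinase of the Hippo family (-2.76, SE 0.32), Cdc7, the kinase that fires replication origins (-2.27, SE 0.31), Csnk1a1 (-1.63, SE 0.24) and Csnk2a1, a catalytic subunit of casein kinase 2 (-1.42, SE 0.18). The calls were fragile. Leaving out a library called 4 genes lower without 2i GFP- A, 1 without 2i GFP- B or day 0 C, and 0 without 2i GFP- C, day 0 A or day 0 B, and a fit with no trend of the spread on abundance called 0.

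The hairpins behind these genes differed in how much they carried. For Csnk1a1, all 4 hairpins were below 0 and 3 were called, 1231 (above), 1235 (-2.01, edgeR adjusted p = 0.00780) and 1234 (-1.23, edgeR adjusted p = 0.0387). Hairpin 1235 had 156, 157 and 103 CPM in 2i GFP- libraries, against 739, 615 and 308 CPM at day 0. Hairpin 1234 lost its call whichever library was left out. For Cdc7, all 4 hairpins were below 0 and 1 was called, 2458, with 0, 3 and 2 counts in 2i GFP- libraries, against 387, 406 and 207 at day 0, although without 2i GFP- C the adjusted p was 0.0551. Hairpins 2450 (-1.49) and 2485 (-2.12) of Cdc7 had non-overlapping libraries without passing the test. For Csnk2a1, 4 of 5 hairpins were below 0 and 2447 (-1.70) and 2491 (-1.76) were called. Hairpin 2491 had 66.8, 39.0 and 58.7 CPM in 2i GFP- libraries, against 180, 149 and 229 CPM at day 0. Both calls rested on nearly the full set of libraries, 2447 being lost without any of 4 and 2491 without any of 5 of the 6. For Stk38l, hairpin 569 had 0, 0 and 1 count in 2i GFP- libraries, against 461, 511 and 155 counts at day 0 (ratio 0.00133, 95% exact interval 3.36e-05 to 0.00741), and the other 3 hairpins were not called. For Rack1, hairpin 2753 had no 2i GFP- count against 146, 99 and 47 counts at day 0 (at least 20.9-fold lower) and lost its call whichever library was left out, while hairpin 161 had 113, 0 and 0 counts in 2i GFP- libraries against 898, 885 and 578 at day 0 and was not called. Hairpin 162 of Rack1 overlapped between the groups. Hairpins 569 of Stk38l and 2753 of Rack1 passed the filter through day 0 only, which fixed their direction. Rack1, with 3 tested hairpins, reached the minimum for the gene test only with 2753 included.

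Several depleted genes had more than a single called hairpin. There were 15 genes with at least 2 hairpins called lower and 10 with at least 2 called higher, 27 genes had calls in both directions, and of the 632 genes with at least 3 hairpins 48 had all of them below 0 and 29 all above. Only Csnk1a1 and Hkdc1 had 3 hairpins called lower, and no gene had 3 called higher. Of the 15 genes, Riok1, Csnk2b, Ikbke and Cdc42bpg reach 2 only through hairpins that passed the filter through day 0 only. Hairpin 2244, 1 of the 3 of Hkdc1, passed in that way too. In the 10 genes the hairpins called higher had measured values in both groups. Hkdc1 hairpins 2241 (-1.04), 2242 (-1.51) and 2244 (no 2i GFP- count) were called, 2243 (-1.12) was not, and 2240 lay at 0.41. Hairpin 2241 had 374, 329 and 327 CPM in 2i GFP- libraries, against 573, 727 and 806 CPM at day 0, without overlap, and lost its call without day 0 C (log2 fold change -0.93). That of 2242 was lost without 2i GFP- A, day 0 B or day 0 C. The following genes were picked after their values were seen. All 5 hairpins of Csnk2b, of Dbf4, the activating subunit of CDC7, and of Riok3, a kinase of ribosome assembly, lay below 0. For Csnk2b the gene-level difference of -2.06 had an adjusted p of 0.0686 by limma. All 5 hairpins of Magi3, a junction scaffold, lay above 0, but 1 alone was called (3250, 1.71). Stk19 had 2 hairpins called lower and 1 called higher, and Ephb2 had 2 called higher and 1 called lower, so hairpins of the same gene could move in opposite directions.

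The 4 genes with listed clones show the same range. For Csnk2b, hairpin 1935 had no 2i GFP- count against 139, 367 and 132 counts at day 0 (at least 46.0-fold lower, call lost without day 0 B), and 1931 had 9.79, 18.3 and 27.2 CPM in 2i GFP- libraries, against 37.2, 87.5 and 84.9 CPM at day 0, without overlap but with an adjusted p of 0.227. Hairpins 1933 and 1934 overlapped between the groups. For Prpsap2, 1 of 5 hairpins was called lower (2946, -1.69), and this call was lost without any of 5 of the 6 libraries. For Nags, which makes N-acetylglutamate for the urea cycle, 1 of 5 was called higher (2968, 1.10), lost without 2i GFP- A or B. The 5 hairpins of Sephs2, a selenophosphate synthetase, had log2 fold changes between -0.52 and 0.67, and their smallest unadjusted p was 0.196 by edgeR.

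The lists that follow group the members by what their genes do, and each is read against the 5.37% lower and 5.47% higher of all hairpins and their median of -0.08. They were chosen with earlier results of these data known, so no test is given for a list. Hairpins that passed the filter through day 0 only, and were all called lower, make up 2 of the depleted hairpins in each of the ribosome and glycolysis lists and 1 in each of the cyclin-dependent kinase, casein kinase, cofactor and blood kinase lists. The 1 enriched hairpin among the targets of 2i passed through 2i GFP- only, so the filter fixed its direction. So did 1 of the 2 enriched among LKB1, AMPK and Hippo kinases, that against Lats2. Among the direct targets of 2i and their cascade (MEK, ERK, RAF and GSK3 genes), 2 of 45 hairpins were lower and 1 was higher, with a median of -0.35 and 5 of 6 genes with a median below 0. Both depleted hairpins were against Gsk3b, the kinase that CHIR99021 inhibits. Hairpin 129 had 197, 151 and 125 CPM in 2i GFP- libraries, against 582, 781 and 643 CPM at day 0 (-2.09, SE 0.247, edgeR adjusted p = 0.00129). Hairpin 125 had 51.2, 96.3 and 74.4 CPM in 2i GFP- libraries, against 170, 352 and 395 CPM at day 0 (-2.05, edgeR adjusted p = 0.0143), a call lost without 2i GFP- A, 2i GFP- C or day 0 C. Hairpin 127 of the same gene was lower in every 2i GFP- library but under the fold limit (-0.93, edgeR adjusted p = 0.00129), 126 lay at -2.29 without passing the test, and 128 at 0.25. The single enriched hairpin, 2071 against Map2k2, the MEK2 kinase that PD0325901 inhibits, had 45.2, 82.2 and 111 CPM in 2i GFP- libraries and no count at day 0 (at least 130-fold higher), and averaged 82.1 CPM at Serum/LIF day 7. Upstream, among FGF receptors and JAK kinases, 2 of 24 hairpins were higher, 1024 against Fgfr4 (1.67) and 818 against Fgfr1 (1.14). By edgeR's quasi-likelihood test 0 were lower, with 2 at an unadjusted p under 0.05, 2 by DESeq2 and 1 by exactTest. Hairpin 1024 had 298, 306 and 345 CPM in 2i GFP- libraries, against 73.0, 128 and 96.6 CPM at day 0. The call of Fgfr1 was lost without day 0 A. The medians over a gene's hairpins were -1.07 for Fgfr4 (3 tested) and 0.87 for Fgfr1 (4).

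Among the kinases of ribosome assembly and translation, 5 of 40 hairpins were lower (12.5%) and 1 was higher, and the median of -0.46 was the lowest of the 17 lists. The filter fixed 2 of the 5, both against Riok1, and 3 remain where both groups had measured values. Hairpin 1285 against Riok1, a kinase that matures the small ribosomal subunit, had 0, 1 and 1 count in 2i GFP- libraries, against 615, 339 and 801 counts at day 0 (ratio 0.00170, 95% exact interval 0.000206 to 0.00617). Hairpin 1284 of Riok1 had no 2i GFP- count against 235, 75 and 15 at day 0, whereas 1281 (-0.15) and 1282 (0.00) overlapped between the groups. Hairpin 1294 against Riok2, a kinase of the same step, had 486, 203 and 339 CPM in 2i GFP- libraries, against 952, 1075 and 1024 CPM at day 0 (-1.58, edgeR adjusted p = 0.00840). Hairpin 1245 against Eef2k, which slows elongation, was also lower (-1.88), a call lost without 2i GFP- A, day 0 A or day 0 C. In the other direction, hairpin 2694 against Eif2ak3, the stress kinase PERK, had 851, 654 and 696 CPM in 2i GFP- libraries, against 281, 308 and 334 CPM at day 0 (1.25, edgeR adjusted p = 0.00388). The medians over the gene's hairpins had the opposite sign to the called hairpin, -0.66 for Eif2ak3 (5 tested) and 0.50 for Eef2k (4).

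The cell cycle lists were mixed. Among cyclin-dependent kinases and their regulators, 5 of 60 hairpins were lower and 4 higher (median -0.07), and among mitotic kinases 1 of 33 was lower and 4 higher (median 0.04, but -0.10 under total count scaling). Hairpin 727 against Cdk4, which drives entry into S phase, had 238, 252 and 273 CPM in 2i GFP- libraries, against 949, 424 and 919 CPM at day 0 (-1.59, edgeR adjusted p = 0.00945). Both called hairpins of Ttk, the spindle checkpoint kinase MPS1, were higher. Hairpin 2687 had 1417, 1585 and 1373 CPM in 2i GFP- libraries, against 634, 626 and 697 CPM at day 0 (1.16), and hairpin 2703 reached a log2 fold change of 1.33. The other 3 Ttk hairpins overlapped between the groups at counts that included 0 in a library. Hairpin 547 against Mastl, a kinase of mitotic entry, was higher as well (1.61, edgeR adjusted p = 0.00780). Bub1, another checkpoint kinase, had hairpin 191 higher (1.30, call lost without any of the 3 2i GFP- libraries or day 0 C) and hairpin 189 lower. Of the other calls, Cks2 hairpin 1929 (1.29) was lost without 2i GFP- C, and Pkmyt1 hairpin 2470 (1.30), against an inhibitory kinase of CDK1, without 2i GFP- A, 2i GFP- C, day 0 A or day 0 C. Another Cks2 hairpin was called lower.

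Among transcription kinases 2 of 25 hairpins were lower and 1 higher (median -0.32), the lower ones being Ccnh hairpin 3000 and Cdk12 hairpin 615 (-1.34), of which 615 lost its call without any of 5 of the 6 libraries. Cdk10 hairpin 800 was higher (1.12, lost without day 0 B). Among DNA damage and chromatin kinases 2 of 29 were lower and 1 higher (median 0.00). Hairpin 2555 against Tlk2, a kinase of chromatin assembly, had 1522, 1112 and 1534 CPM in 2i GFP- libraries, against 631, 473 and 562 CPM at day 0 (1.32, edgeR adjusted p = 0.00256). Hairpin 1279 against Prkdc, the kinase of DNA end joining, had 11.8, 1.94 and 12.2 CPM in 2i GFP- libraries, against 61.7, 161 and 78.0 CPM at day 0 (-3.54), but lost its call whichever library was left out. Hairpin 158 against Chek2 (-1.17) lost its call without 2i GFP- A.

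Among casein kinases 8 of 46 hairpins were lower (17.4%) and 6 higher (13.0%), with a median of -0.35. With RLE, upper quartile and total count scaling 5, 5 and 4 of the 46 were higher and 8, 9 and 10 lower. The lower ones include 3 against Csnk1a1, 2 against Csnk2a1 and 2 against Csnk2b. Of the higher ones, 2 were against Csnk1g2, a membrane-bound casein kinase 1. Hairpin 1212 against it had 705, 877 and 718 CPM in 2i GFP- libraries, against 339, 360 and 298 CPM at day 0 (1.20, edgeR adjusted p = 0.00427), and hairpin 1214 had 271, 287 and 340 CPM in 2i GFP- libraries, against 25.5, 77.7 and 45.2 CPM at day 0 (2.59). Csnk2a2, the other catalytic subunit of casein kinase 2, had hairpin 2368 at the limit of a call (1.01, and 0.87 at the lowest when a library was left out), and hairpin 2367 lower in every 2i GFP- library at -0.95. The call of 2368 was lost without 2i GFP- C or day 0 C and under RLE, upper quartile and total count scaling, and the median over the hairpins was below 0 for Csnk2a2 (-0.73), Csnk2a1 (-0.99) and Csnk2b (-1.77).

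Among kinases of glycolysis and hexoses 8 of 65 hairpins were lower (12.3%) and 4 higher (6.15%), with a median of -0.20 and 11 of 14 genes below 0. Of the 8 lower, 3 were against Hkdc1, and each of these calls was lost without 1 library or another. Of the genes for phosphofructokinase, the committed step of glycolysis, Pfkm and Pfkl each had 1 of 5 hairpins called, in opposite directions. The medians over the 5 were -0.03 for Pfkm and 0.13 for Pfkl. Pfkp had 1 of 3 tested hairpins called lower (median -0.28). This was 2400, which passed the filter through day 0 only, with no 2i GFP- count against 81, 337 and 65 counts at day 0. Hairpin 88 against Pfkm had 40.6, 15.2 and 17.1 CPM in 2i GFP- libraries, against 327, 251 and 172 CPM at day 0 (-3.37, edgeR adjusted p = 0.00509). Hairpin 91 against Pfkl had 842, 817 and 1044 CPM in 2i GFP- libraries, against 172, 235 and 302 CPM at day 0 (1.93, edgeR adjusted p = 0.00176). Galk2 hairpin 1702 (1.18) and Hk2 hairpin 97 (1.06) were higher, the call of hairpin 97 being lost without 2i GFP- C or day 0 A and under upper quartile and total count scaling. Another Hk2 hairpin was called lower. In nucleotide metabolism 1 of 104 hairpins was lower (0.962%) and 6 were higher (5.77%), with a median of -0.01. The number lower varied with the test, with 12 at an unadjusted p under 0.05, 10 by DESeq2, 4 by exactTest and 4 under total count scaling. Hairpin 2236 against Nme6, a nucleoside diphosphate kinase, had 1655, 1856 and 1423 CPM in 2i GFP- libraries, against 723, 684 and 701 CPM at day 0 (1.22), and hairpin 1904 against Guk1, the guanylate kinase, rose by 2.19. The list of cofactor kinases also held Nags, a synthase and not a kinase. Of the 62 hairpins of this list 4 were lower and 2 higher, with a median of 0.02 that was negative under all 3 other scalings. The 2 higher were Pank4 hairpin 2279 and Nags hairpin 2968. Rfk hairpin 2407, against riboflavin kinase, had 1 count in all 2i GFP- libraries together against 856 at day 0 (ratio 0.00175, 95% exact interval 4.42e-05 to 0.00976). Pank4, a pantothenate kinase family member, had hairpin 2279 higher (1.45) and hairpin 2276 lower (-1.06), the second call being lost without any of 5 of the 6 libraries.

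In PI3K, AKT and mTOR signalling 5 of 69 hairpins were lower (7.25%) and 2 higher (2.90%), with a median of -0.07. Hairpin 1956 against Pik3r2, a regulatory subunit of PI3K, had 84.3, 179 and 105 CPM in 2i GFP- libraries, against 385, 376 and 449 CPM at day 0 (-1.71, edgeR adjusted p = 0.0107), and Pik3ca hairpin 2348 had 2 counts in the 2i GFP- libraries together against 820 at day 0 (ratio 0.00365, 95% exact interval 0.000441 to 0.0132), a call lost without any of 4 libraries. Sgk2 hairpin 535 was higher (2.83, lost without 2i GFP- A, 2i GFP- C or day 0 C), but the median over the 3 tested Sgk2 hairpins was -0.41. Among LKB1, AMPK and Hippo kinases 1 of 38 was lower and 2 were higher, although 8 of 9 genes had a median below 0 (list median -0.26). Hairpin 1410 against Stk11, the LKB1 kinase that activates AMPK, had 244, 357 and 455 CPM in 2i GFP- libraries, against 830, 1186 and 1006 CPM at day 0 (-1.52, edgeR adjusted p = 0.00645). Besides Lats2, the call of Stk4 hairpin 2135 (1.04) was lost without any of 5 of the 6 libraries. In protein kinase A 3 of 38 hairpins were higher and the median was 0.22. By edgeR's quasi-likelihood test 0 were lower, with 6 at an unadjusted p under 0.05, 4 by DESeq2 and 1 by exactTest. Hairpin 2263 against Prkar2b, a regulatory subunit, had 2467, 2434 and 2398 CPM in 2i GFP- libraries, against 1119, 1242 and 1079 CPM at day 0 (1.08), and lost its call under upper quartile and total count scaling. Hairpin 3271 against Pkig, an inhibitor of the kinase, had 1319, 1397 and 1169 CPM in 2i GFP- libraries, against 501, 558 and 437 CPM at day 0 (1.37), and Prkar1b hairpin 1757 (1.75) was lost without any of 5 of the 6 libraries.

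Among receptors for TGF-β, activin and BMP, 2 of 51 hairpins were lower and 2 higher (median -0.12). Of the TGF-β receptor pair each had 1 of 5 hairpins called, 223 of Tgfbr1 higher and 334 of Tgfbr2 lower, and the medians over the 5 were -0.16 for Tgfbr1 and -0.12 for Tgfbr2. Hairpin 334 had 39.4, 34.6 and 81.7 CPM in 2i GFP- libraries, against 446, 539 and 505 CPM at day 0 (-3.26, edgeR adjusted p = 0.00134). Hairpin 254 against Acvr1, a BMP and activin type I receptor, was among the most common hairpins, with 4537, 4514 and 4459 CPM in 2i GFP- libraries, against 1722, 2197 and 2259 CPM at day 0 (1.13, with the call lost under total count scaling and, by a fold just under the limit, without day 0 A). Acvrl1 hairpin 277 (-1.10) lost its call without 2i GFP- C or day 0 B. Among stress MAP kinases 5 of 69 were lower and 3 higher (median -0.10). Hairpin 101 against Mapk8, the kinase JNK1, had 55.6, 144 and 138 CPM in 2i GFP- libraries, against 420, 440 and 662 CPM at day 0 (-2.17), while Mapk9, JNK2, had hairpin 2864 higher (1.15). Mapk12, a p38 kinase, had hairpin 688 lower (-1.33) and hairpin 685 higher (1.98), both with no overlap between the groups. Lymphoid and blood tyrosine kinases, taken as kinases of other cell types, had 2 of 38 hairpins lower and 2 higher. These shares were near those over all hairpins, but the median of 0.24 was the highest of the lists. Relative to the median of all hairpins it lay at 0.317, against -0.382 for the ribosome and translation list, the lowest. A list taken as unrelated thus lay nearly as far from all hairpins as the lowest list. Tec had a hairpin in each direction, 1118 lower and 1116 higher (1.21), Blk hairpin 896 was higher (1.47), and Lyn hairpin 1110 was lower (-2.30, lost without any of 5 of the 6 libraries). The median over the 3 tested Lyn hairpins was 0.60.

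To place the changes, the same hairpins were read in 2i GFP- against Serum/LIF day 7, a comparison that uses the same 2i GFP- libraries and in which 8.99% of 2981 hairpins were called, 4.83% lower and 4.16% higher. Of the 157 depleted hairpins, 143 were tested there, of which 47 were also lower than at day 7, 2 were higher and 94 were not called (median log2 fold change -0.94). Of the 160 enriched ones, 40 were also higher than at day 7, 0 were lower, and 120 were not called (median 0.66), and the count of 40 was 93 with no fold limit. Without Serum/LIF day 7 library A, B or C the first count was 23, 24 and 22. Some depleted hairpins were low at Serum/LIF day 7 as well and others were not. Hairpin 1231 against Csnk1a1 had 117, 175 and 219 CPM at day 7, so that 2i GFP- was not called lower (-0.86), and the same held for Met hairpin 992, with 135, 221 and 183 CPM at day 7 (-0.41), and Tgfbr2 hairpin 334, with a mean of 80.0 CPM at day 7 (-0.61). Hairpin 3000 against Ccnh kept 440, 393 and 517 CPM at day 7 (-2.36), hairpin 251 against Ilk 1709, 1741 and 1496 CPM (-1.24), and hairpin 2379 against Nek4 2150, 2319 and 1870 CPM (-1.63), all called lower in 2i GFP-. These last 3 were near their day 0 levels at day 7. Csnk2b hairpin 1932 was lowest at day 7, where its 406, 383 and 353 CPM lay below the 2i GFP- libraries, which were called higher (1.34). Among enriched hairpins, 1253 against Stk19 (3.06), 1833 against Pi4k2b (1.80) and 2579 against Bmp2k (1.48) were also called higher than day 7, whereas 2236 against Nme6 averaged 2124 CPM at day 7 and was not (-0.36).

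Set against 2i GFP+ cells, which also uses the 2i GFP- libraries and where 8.58% of 2600 hairpins were lower and 23.5% higher in 2i GFP-, 11 of 120 tested depleted hairpins were lower, 25 higher and 84 not called, and 25 of 160 enriched hairpins were lower, 28 higher and 107 not called. The first count was 3 without any 1 of the 2i GFP- libraries, 6 without 2i GFP+ A and 22 without 2i GFP+ B, and the count of 25 enriched and lower was 9 without any 1 of the 2i GFP- libraries and 40 without 2i GFP+ B. In 2i GFP+ libraries far fewer hairpins had a count, between 1538 and 1906 per library, against 2782 to 2856 in 2i GFP- libraries. Csnk2b hairpin 1932 averaged 9736 CPM in 2i GFP+ libraries, so the hairpin that was depleted in 2i GFP- from day 0 was also called lower than in 2i GFP+ (-3.40). Hairpin 129 against Gsk3b had no count in 2i GFP+ libraries, and was higher in 2i GFP- than there while lower than at day 0. Hairpin 223 against Tgfbr1 averaged 5427 CPM in 2i GFP+ libraries and was called lower in 2i GFP- (-3.01), although it was enriched over day 0 in the same libraries.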

How the data were processed

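Per the methods, the authors amplified integrated hairpins from genomic DNA by PCR, aligned the reads with Bowtie2 and counted them per hairpin. The deposited values are raw counts, and edgeR is the tool the submitters name for testing them. Tool versions and the reference of hairpin sequences were not given in the sources used here. Sample titles describe each library as combined, without further explanation. Symbols were updated in a mouse gene table (2941 hairpins by symbol, 283 by synonym, 19 unmatched).

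From these counts, libraries were scaled by TMM and fitted with edgeR 4.0.16 (glmQLFit, glmQLFTest) in R 4.3.3, each comparison alone, with Benjamini-Hochberg adjustment over all hairpins tested. Gene values are medians over at least 3 hairpins of log2 CPM (prior count 2) less each hairpin's mean over the 6 libraries, tested with limma 3.58.1 (trend on abundance, adjusted p under 0.05, difference over 0.5). Scripts were tested on simulated data. CPM printed carry TMM factors over all 12 libraries. Alternatives were RLE, upper quartile and total count scaling, other filters and thresholds, exactTest, a replicate block, DESeq2 1.42.0, a fit over all 4 groups and leaving out each library.

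The 17 gene lists and the members were chosen with earlier results of these data known. The text names the 10 depleted and 10 enriched hairpins with the smallest p and no overlap, up to 8 genes called each way, genes with 3 hairpins called 1 way, up to 4 called hairpins of each list, the 5 hairpins lost from 2i GFP- with the most day 0 counts, the 5 each way with the smallest p against day 7, and hairpins of 4 genes with listed clones. Some hairpins that the rule picks are not reported here. Others are named where a statement needs them and were chosen after their values were seen.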

Additional observations from a re-analysis of the deposited data

Results flagged for a closer look

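A hairpin is given here because its 2i GFP- libraries differed both from Serum/LIF day 0 and, by a test of its own, from Serum/LIF day 7, so that the day 7 cells, grown for the same 7 days from the same start, differed from the 2i GFP- cells. Among the named hairpins given here 35 met this, 20 lower and 15 higher in 2i GFP- than at day 7, with edgeR adjusted p-values up to 0.0491. Over all hairpins 4.83% were lower and 4.16% higher than at day 7. The count is partly fixed by the choice of hairpins, since 10 of them were named for their small p against day 7. It is also partly fixed by the filter. Hkdc1 2244, Ikbke 2428, Ptk2b 1084, Rfk 2407 and Riok1 1285 were under 0.5 CPM in every 2i GFP- library. They passed through the Serum/LIF libraries only, which fixed their direction against both days. The comparison shares its 2i GFP- libraries with that against day 0.

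Among those lower than day 7, hairpins with no 2i GFP- count were at least 26.8-fold (Hkdc1 2244), at least 12.04-fold (Ikbke 2428) and at least 5.41-fold (Ptk2b 1084) lower. With 1 or 2 counts in 2i GFP-, the ratios to day 7 were 0.00203 for Rfk 2407 (95% exact interval 5.13e-05 to 0.0113), 0.00507 for Pik3ca 2348 (0.000613 to 0.0184) and 0.00915 for Riok1 1285 (0.00110 to 0.0333). In the kinases of transcription and the cell cycle, the log2 fold changes were -2.36 for Ccnh 3000, -1.62 for Cdk12 615, -1.57 for Chek1 154 and -1.23 for Cdk4 727. In metabolism they were -2.23 for Pfkm 88, -1.58 for Shpk 1767 and -1.05 for Hkdc1 2241. The others were Prkdc 1279 at -3.42, Mapk8 101 at -2.00, Per3 3443 at -1.91, Nek4 2379 at -1.63, Gsk3b 129 at -1.46, Stk11 1410 at -1.28 and Ilk 251 at -1.24.

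Among those higher than day 7, Cpt1b 3551, against a carnitine palmitoyltransferase, was at 3.35, although its call against day 0 was lost without 2i GFP- A, B or C or day 0 C (edgeR adjusted p up to 0.0947). Stk19 1253 was at 3.06. Pkmyt1 2470 was at 2.00, Mapk12 685 at 1.99 and Pi4k2b 1833 at 1.80. Mylk3 1553 was at 1.56, Bmp2k 2579 at 1.48, Pdgfrb 3015 at 1.42 and Tlk2 2555 at 1.41. Csnk2b 1932, which was lower than at day 0, was at 1.34 and Bub1 191 at 1.32. Kcnh7 2915 was at 1.14, Fgfr4 1024 at 1.10, Sgk2 535 at 1.07 and Ntrk3 975 at 1.05.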

How the results depend on the processing

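No named hairpin or gene that was called changed sign under an alternative, but some of those not called did. The cause of the moves below was not tested. The 157 depleted hairpins became 310 with DESeq2, 28 with all 4 groups in 1 fit, 84 with a replicate block, 44 at an adjusted p under 0.01 and 74 to 133 without 1 library. The 160 enriched became 67 with all 4 groups in 1 fit, 135 with the replicate block, 94 at 0.01 and 106 to 157 without 1 library. The letters A, B and C do not pair the samples (correlations of deviations between -0.05 and 0.00), and the replicate block is given for that reason only here. With exactTest, 211 and 186 were called, with RLE 163 and 147, with upper quartile scaling 175 and 126, without a filter 129 and 165, and at 10 CPM 159 and 154.

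Of hairpins depleted and lower than day 7 (47), the counts were 4 with all groups in 1 fit, 23 at 0.01 and 22 to 62 without 1 library. Of those enriched and higher than day 7 (40), the counts were 6 with all groups in 1 fit, 93 with no fold limit and 34 to 42 without 1 library. Depleted and lower than 2i GFP+ (11) gave 6 with total count scaling, 18 with all groups in 1 fit, 3 with the replicate block, 3 at 0.01 and 3 to 23 without 1 library. Enriched and lower than 2i GFP+ (25) gave 16 with total count scaling, 9 with the block, 16 at 0.01 and 9 to 40 without 1 library. The 5 lower genes became 37 with means, 76 with edgeR on summed counts, 8 and 14 with at least 2 and 4 hairpins, 16 with total count scaling, 14 at 10 CPM, 2 with the block, 0 at 0.01, 0 to 4 without 1 library and 0 by limma without a trend, an alternative chosen after seeing the data. The 0 higher genes became 7, 70, 4, 9 and 8 with means, summed counts, at least 2 hairpins, at least 4 and 10 CPM. The detected hairpins differed by -119 at 10 counts or more.

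At the filter's limit 0.5 CPM is between 1.32 and 2.20 counts, so counting error is large there. Replicate libraries differed by more than counting error (chi-square per degree of freedom 39.9 to 144), so counting intervals understate the spread.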
